A study of Nasonia vitripennis with 23 samples.

Results

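OBP77, OBP19 and OBP67 are the 3 genes with an OBP symbol among the 14131 genes of the read count table, and they were taken by these symbols. Other odorant-binding proteins may stand in the table under LOC symbols, whose products were not used here. They were measured in heads of female *Nasonia vitripennis*, a parasitoid wasp that lays its eggs in blowfly pupae. Each library came from 12 pooled heads of AsymC females, a strain cured of *Wolbachia*, after 3 h of access to 3 hosts. The females oviposited alone (single-foundress, 8 libraries), with 4 co-foundresses of the red-eyed STDR strain (five-foundress, 7 libraries) or with 9 of them (10-foundress, 8 libraries). Only heads of females that produced offspring were pooled, and all focal females were F1 offspring of isolated mothers and had received 1 host and then honey before the test. The heads were of AsymC females only and held brain, eyes and antennae together, so that a change in fewer cells and a change in the RNA per cell cannot be told apart.

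Odorant-binding proteins are small soluble proteins that are secreted into the lymph around the olfactory neurons of insects, where they bind odour molecules and carry them towards the receptors. Odorant receptors sit in the dendrites of these neurons and work as complexes with a shared coreceptor, which in *Nasonia* bears the number Or1 and in *Drosophila* is known as Orco. In insects both families are known above all from the antenna, although some odorant-binding proteins are made in other tissues. The 3 proteins bear numbers and not names of ligands, and the odours that they bind are not given in the sources used here.

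Single-foundress replicate 2, which the study removed as an outlier, entered none of the values over 22 libraries. The other libraries held between 25194329 and 69696501 counts. The head origin was visible in Lop1, the long-wavelength opsin of the eye, at 5579 to 12025 CPM (counts scaled to a common library size by the TMM factors of edgeR), and in nicotinic acetylcholine receptor subunits, which serve synaptic transmission in the insect brain, at a summed 441 to 833 CPM. The 214 odorant receptors (symbols Or plus a number), of which 211 had at least 1 read, summed to 157 to 969 CPM.

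OBP77 was the well measured member, with 316 to 4489 counts per library and a counting error of 5.63% to 1.49% of the count. Among the single-foundress pools replicate 8 was lowest with 10.3 CPM, the median was 35.8 and replicate 1 was highest with 55.7. In the five-foundress group OBP77 lay at 17.8 CPM in replicate 13, had a median of 38.2 and reached 69.3 in replicate 10. In the 10-foundress group it lay at 20.5 CPM in replicate 19, had a median of 49.9 and reached 97.8 in replicate 17. The 3 groups overlapped over most of their range, and the lowest library of all was a single-foundress and the highest a 10-foundress pool. The group means were 37.6 ± 15.6 CPM (SD, n = 7), 41.2 ± 21.3 (SD, n = 7) and 54.0 ± 25.6 (SD, n = 8). Single-foundress replicate 2 had 40.8 CPM from 2242 counts, within the range of its group.

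**Figure D1:**
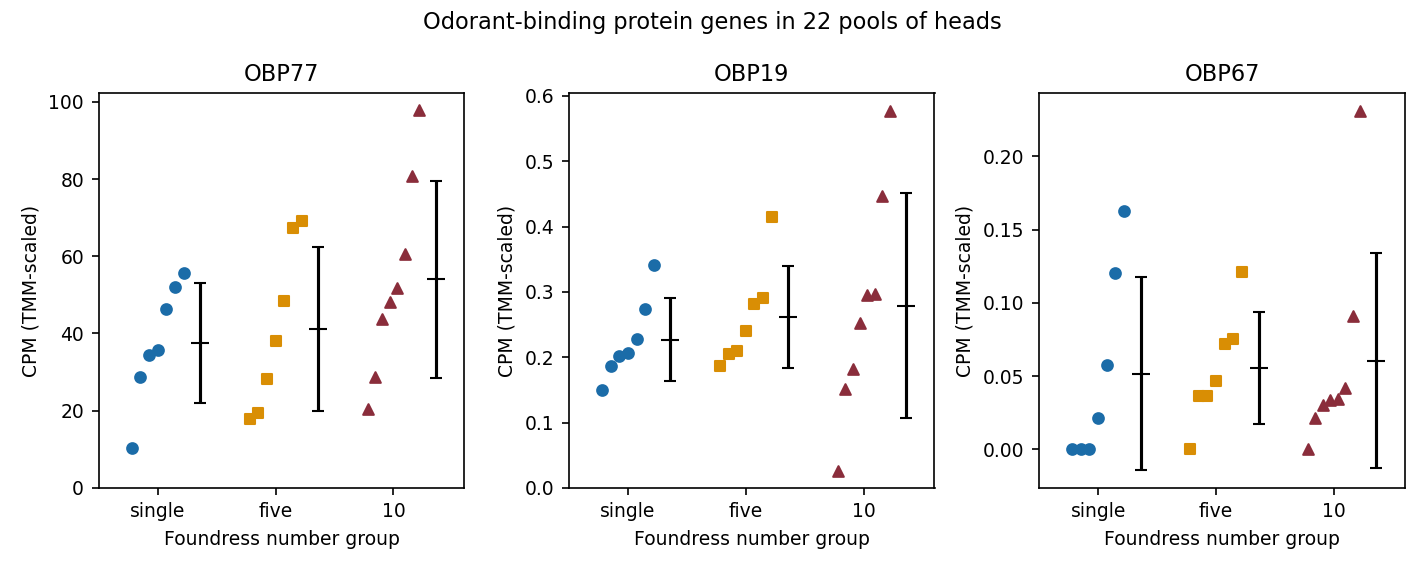
CPM of OBP77, OBP19 and OBP67 (vertical axes, one scale for each gene) by foundress number group (horizontal axis). Each point is 1 pool of 12 heads and the black bars give the mean and SD (n = 7, 7 and 8). The groups overlap for all 3 genes, and OBP77 runs from 10.3 to 97.8 CPM while OBP19 and OBP67 stay below 1 CPM.

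The comparisons asked whether the level of OBP77 differed with the number of females on the patch, a cue to the intensity of local mate competition. No difference passed the threshold. In edgeR's quasi-likelihood test OBP77 had a log2 fold change of 0.13 (standard error 0.37, 95% interval -0.62 to 0.89, adjusted p = 1) for five-foundress over single-foundress pools. It was 0.39 (standard error 0.35, interval -0.35 to 1.12, adjusted p = 1.00) for 10-foundress over five-foundress pools. Between the 10- and single-foundress groups it was 0.52 (standard error 0.36, interval -0.21 to 1.26, adjusted p = 0.952), and the unadjusted p was 0.156. All 3 intervals include no difference, and both intervals for the 10-foundress group also include more than a doubling.

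Exact two-sided permutation tests of the log2(CPM + 0.5) of OBP77 gave p = 0.811, 0.303 and 0.221 for the same 3 comparisons (each 0.959 after adjustment over the 9 tests on the 3 genes, smallest possible p 0.000583 or 0.000311). A 10-foundress pool was above a single-foundress pool in 38 of the 56 pairs. With foundress number as a numeric trend, edgeR gave a log2 slope of 0.06 per foundress (standard error 0.04, adjusted p = 0.961), and for overall foundress number the adjusted p was 0.994. The slope was 0.04 without 10-foundress replicate 17, 0.02 with the summed receptors as a covariate and 0.01 with limma-voom and sample quality weights. In the same fits 0 of 13599 genes (0.0%) passed an adjusted p of 0.05, while the share of all genes under 0.05 without adjustment was 1.76%, 1.81% and 3.18% in the pairwise comparisons, 1.96% overall and 3.57% for the trend. DESeq2 also called 0 genes in each pairwise comparison, and limma-voom called 3 (0.0221%) between the 10- and single-foundress groups, none of which was OBP77. With single-foundress replicate 2 included, edgeR called 39 genes between the 10- and single-foundress groups, 77 overall and 38 for the trend, while OBP77 had an adjusted p of 1.00, 1.00 and 0.951 in these tests. Leaving out single-foundress replicate 3 in addition to replicate 2 gave 1, 1 and 3 calls in edgeR. The study used DESeq2 and reported that removing single-foundress replicate 2 did not change how many genes were called. It also reported that this library had the smallest share of mapped reads. The sign of the five- versus single-foundress difference turned with limma-voom and sample quality weights (-0.13). It also turned when single-foundress replicate 8, five-foundress replicate 10 or five-foundress replicate 16 was left out (-0.04, -0.04 and -0.03). The 10- versus single-foundress log2 fold change was 0.33 without 10-foundress replicate 17 and 0.05 with limma-voom and sample quality weights (adjusted p = 0.959 from limma-voom).

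**Figure D2:**
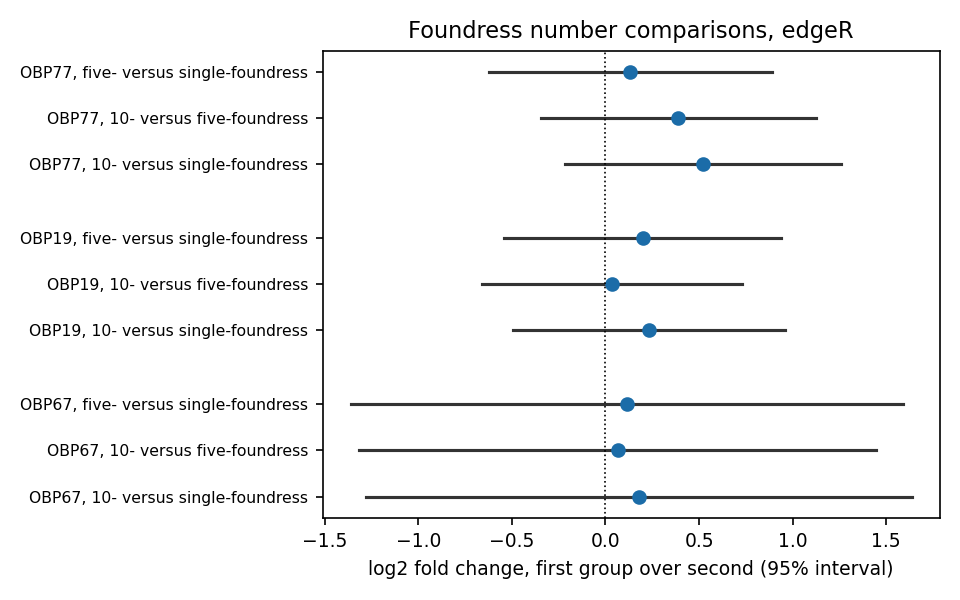
Log2 fold changes of the 3 genes in edgeR (horizontal axis, first group over second) with 95% intervals for each comparison (vertical axis). All 9 intervals cross 0, and those of OBP67, which rests on 0 to 7 counts per library, are the widest.

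OBP77 varied widely between pools of the same treatment. The SD of its log2(CPM + 0.5) was 0.77 over the 22 libraries and 0.77 within groups, against a median SD of 0.29 over 10167 genes whose mean reached 1 CPM. This scale narrows the spread of genes near 1 CPM. The odorant receptors also varied widely on it. Their median SD was 0.64 over the 125 whose mean reached 1 CPM, and 116 of these had a lower SD than OBP77. The SD was 0.73 for the summed receptors and 1.06 for Or1. The highest and the lowest pool of OBP77 differed 9.51-fold in CPM.

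The spread of OBP77 followed that of the odorant receptors. Over the 22 libraries the log2 CPM of OBP77 and of the summed receptors had a Pearson r of 0.853 (permutation p = 1e-05, the smallest that 100000 permutations can give) and a Spearman rho of 0.836 (permutation p = 1e-05). Without single-foundress replicate 8 and five-foundress replicate 12, the libraries farthest from the median of the receptors, r was 0.758. Single-foundress replicate 8 was lowest in both, at 10.3 CPM of OBP77 and 157 CPM of receptors, whereas 10-foundress replicate 17 combined the highest OBP77 with 945 CPM of receptors. A regression on the log2 scale had a slope of 0.90 (standard error 0.12) and accounted for 72.8% of the variance of OBP77, with an SD of 0.41 around the line. These p-values belong to a family of 12 relations, and after adjustment over it they were 0.00012 for r and for rho.

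The relation was also present within each foundress number group. It had r = 0.832 (exact permutation p = 0.0202, adjusted 0.0486) in the single-foundress group of 7 libraries. In the five-foundress group of 7 it was 0.911 (exact permutation p = 0.0103, adjusted 0.031), and in the 10-foundress group of 8 it was 0.850 (exact permutation p = 0.00709, adjusted 0.0284). The Spearman rho was 0.679, 0.857 and 0.857, and of these only the last passed 0.05 after adjustment (exact permutation, adjusted p = 0.219, 0.0714 and 0.0429). Without the 2 libraries farthest from the median of the receptors of each group, r was 0.608, 0.893 and 0.854. The total counts of the libraries had an r of 0.319 to OBP77 (permutation p = 0.149, adjusted 0.297).

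**Figure D3:**
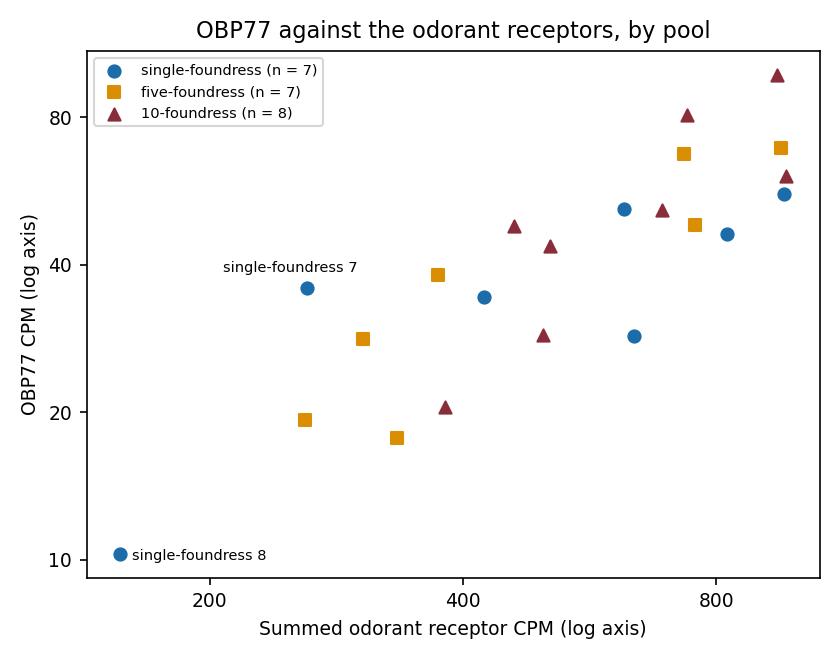
OBP77 CPM (vertical log axis) against the summed CPM of the odorant receptors (horizontal log axis) for the 22 pools, with a colour and marker for each foundress number group. The pools lie along one rising band (r = 0.853 on the log2 scale) in which the groups mix. Single-foundress replicate 8 marks its lower end and single-foundress replicate 7 lies above it.

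For every 100 CPM of odorant receptors there were 7.53 ± 3.07 CPM of OBP77 (SD, n = 7) in the single-foundress, 7.87 ± 1.75 (SD, n = 7) in the five-foundress and 8.16 ± 2.24 (SD, n = 8) in the 10-foundress group. This ratio ran from 4.47 to 13.7 over all pools, a 3.07-fold range, and single-foundress replicate 7 was highest. When the log2 receptor sum of each library was entered as a covariate in edgeR, the 10- versus single-foundress log2 fold change of OBP77 was 0.19 (standard error 0.22, 95% interval -0.26 to 0.65, adjusted p = 0.900), with a narrower interval than without it.

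The receptors one by one gave a similar picture. Of the 125 odorant receptors whose mean reached 1 CPM, 117 had an r above 0.5 to OBP77 and the median r was 0.77, while 11.4% of all 10166 genes compared with OBP77 had an r above 0.5 and their median was 0.0159. These correlations share their libraries, and the receptors also vary with each other, so that they are given as a description. The 86 receptors with reads but a lower mean had a median r of 0.585. Within the groups the count above 0.5 was 118 in the single-foundress, 120 in the five-foundress and 98 in the 10-foundress group, where 22.4%, 27.7% and 20.9% of all compared genes were above it.

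**Figure D4:**
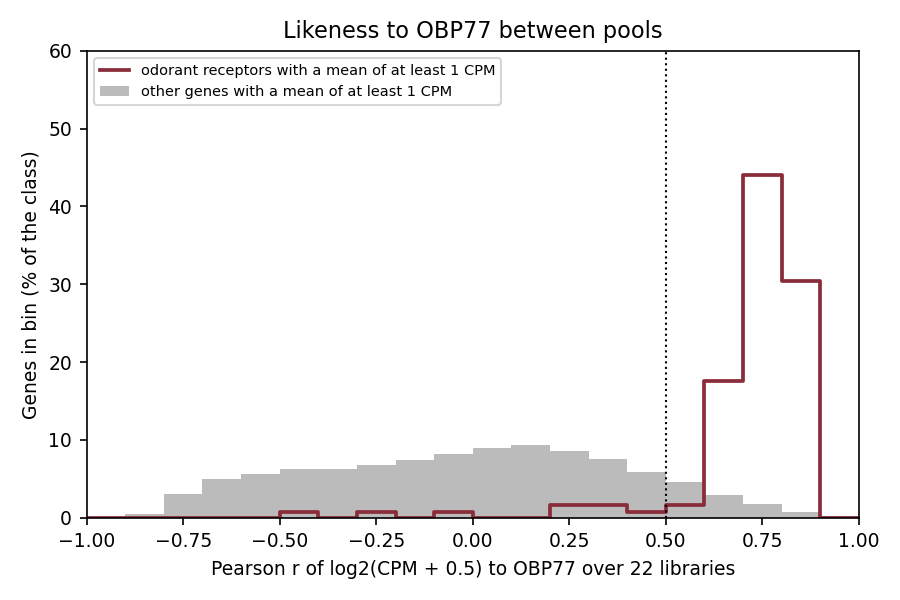
Distribution of the Pearson r to OBP77 over 22 libraries (horizontal axis, bins of 0.1) for 125 odorant receptors (red line) and for the genes other than receptors whose mean reached 1 CPM (grey bars), each as a percentage of its class (vertical axis). The receptors gather between 0.6 and 0.9 and 3 of them fall below 0. The dotted line marks 0.5.

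Or252, Or9, Or245, Or111 and Or2 followed OBP77 most closely, with r between 0.868 and 0.880. Or245 was the most abundant of these, with 4.07 CPM in single-foundress replicate 8, a median of 14.9 and 33.4 CPM in single-foundress replicate 1. Or252 ranged from 0.423 CPM in single-foundress replicate 8 to 4.71 CPM in 10-foundress replicate 17, the pools that were also lowest and highest in OBP77.

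The coreceptor Or1 had an r of 0.791 to OBP77 and spanned a wider range, from 14.3 CPM in single-foundress replicate 8 through a median of 95.6 to 271 CPM in 10-foundress replicate 18. Its group means were 76.9 ± 40.0 CPM (SD, n = 7), 115 ± 90.0 (SD, n = 7) and 143 ± 70.1 (SD, n = 8), with overlapping libraries. Between the 10- and single-foundress pools Or1 differed by a log2 fold change of 0.90 (standard error 0.46, unadjusted p = 0.0659, adjusted p = 0.952 from edgeR). In five-foundress replicate 15 Or1 was at 27.0 CPM while OBP77 was at 28.2, and in five-foundress replicate 10 it was at 260 CPM while OBP77 was at 69.3.

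A few receptors did not follow. Or275, Or301, Or276, Or41 and Or106 had the lowest r to OBP77, at 0.278, 0.252, -0.0377, -0.274 and -0.456. Or106 was highest, at 2.25 CPM, in single-foundress replicate 8, where OBP77 was lowest, and had a median of 1.24 and a lowest value of 0.826 CPM in 10-foundress replicate 22. It rested on 24 to 80 counts per library, and its r was -0.241 without the 2 libraries farthest from the median of OBP77. Or275 ranged from 3.40 to 17.4 CPM and Or276 from 2.96 to 8.46 CPM, and both were lowest in single-foundress replicate 7 and highest in single-foundress replicate 5. Or301 stayed within 4.08 and 8.99 CPM and Or41 within 0.721 and 2.31 CPM.

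Among the odorant receptors 0 passed an adjusted p of 0.05 in edgeR in any pairwise comparison. At an unadjusted p below 0.05 there were 0, 4 and 2 of 211 in the five- versus single-, 10- versus five- and 10- versus single-foundress comparisons. The share of all genes with such a p in edgeR was 1.76%, 1.81% and 3.18%. DESeq2 gave 0 after adjustment and 0, 4 and 4 before it, where 1.64%, 1.5% and 3.19% of all genes had such a p. Similarly, limma-voom gave 0 after adjustment and 3, 7 and 7 before it, where 2.81%, 6.15% and 14.1% of all genes had such a p. The median log2 fold change of the receptors was -0.12, 0.26 and 0.14 in these comparisons, beside 0.13, 0.39 and 0.52 for OBP77 and 0.00, 0.01 and 0.01 for all genes. The log2 fold change was above 0 for 75, 178 and 153 of 211 receptors, against 50.8%, 53.2% and 51.9% of all genes. The receptors vary with each other over the same libraries, so that their signs are not separate observations. For 10- against five-foundress pools the median of the receptors was 0.12, with 150 of 211 above 0, without 10-foundress replicate 17. Without five-foundress replicate 10 it was 0.41, with 191 of 211 above 0. In the 10- versus single-foundress comparison the median of the receptors turned to -0.08 with limma-voom and sample quality weights, and to -0.02, with 98 of 211 above 0, without single-foundress replicate 8. For five- against single-foundress pools it turned to 0.10, with 136 of 210 above 0, without single-foundress replicate 1, and was 0.00, with 106 of 211 above 0, without single-foundress replicate 4.

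The genes whose pattern over the 22 libraries was most like that of OBP77 were ranked by Pearson r of log2(CPM + 0.5) among 10166 genes. LOC100119474 stood first with r = 0.978 and rho = 0.944, and it is the gene next to OBP77 in the RefSeq annotation of assembly Nvit_psr_1.1, where the spans of these genes do not overlap. It had 16.7 CPM in single-foundress replicate 8, a median of 93.8 and 194 CPM in 10-foundress replicate 17, the same lowest and highest pools as OBP77. Of the other genes within 3 places of OBP77 in that annotation and in the count table, LOC100678854, LOC100679370 and LOC100679337 had an r of 0.415, 0.365 and -0.431. The high likeness was to 1 of these 4 neighbours. What LOC100119474 encodes is not given in the sources used here.

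LOC100679515, LOC100116170, LOC100117585 and LOC100117099 came next, with r of 0.969, 0.957, 0.955 and 0.954. CYP4AB15, a cytochrome P450 by its name, followed with 0.947, and LOC100118985, LOC100118150, LOC100124110 and LOC100122744 had 0.946 to 0.936. By Spearman rho LOC100116170 and LOC100117099 were the closest of these, both at 0.975. All 10 were lowest in single-foundress replicate 8, and 8 of them were highest in 10-foundress replicate 17. Their r to the summed receptors lay between 0.753 for LOC100679515 and 0.942 for LOC100118150, beside 0.853 for OBP77. No odorant receptor was among these 10 genes, and 136 of 10041 genes other than receptors had a higher r to the receptor sum than OBP77.

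From single- to 10-foundress pools LOC100119474 had a log2 fold change of 0.65 (standard error 0.38, adjusted p = 0.952 from edgeR) and LOC100679515 of 0.68 (standard error 0.34, adjusted p = 0.952 from edgeR), so that neither passed the threshold.

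Other genes ran against OBP77. An r below -0.5 was found for 14.0% of all compared genes and for 0 of the 125 receptors. LOC100120804 had the lowest, -0.910, and LOC100115104, LOC100123013, LOC100123103 and LOC100678164 lay between -0.876 and -0.847. LOC100120804 varied little between pools. It was at 57.5 CPM in 10-foundress replicate 17, had a median of 68.0 and reached 87.7 in single-foundress replicate 8. The SD of log2(CPM + 0.5) was 0.146 for LOC100120804, 0.0954 for LOC100115104 and 0.155 for LOC100123013. It was 0.299 for LOC100123103 and 0.391 for LOC100678164, both above the median of 0.294 over genes.

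**Figure D5:**
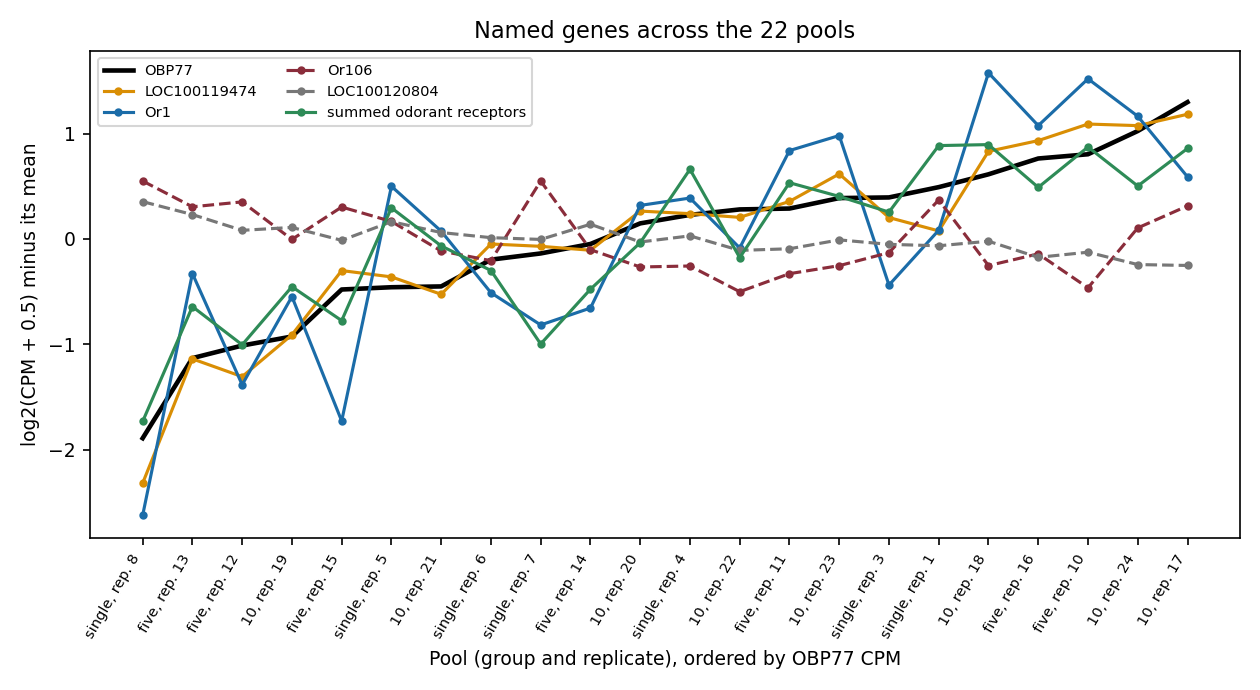
Log2(CPM + 0.5) minus its mean (vertical axis) for OBP77 (black), its neighbour LOC100119474, the coreceptor Or1, the summed odorant receptors, Or106 and LOC100120804 in the 22 pools, ordered from the lowest to the highest OBP77 (horizontal axis). LOC100119474 stays close to OBP77 (r = 0.978), Or1 swings more widely, and LOC100120804 declines slightly as OBP77 rises (r = -0.910).

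Genes that mark other parts of the head were compared with OBP77 in the same way. The summed nicotinic acetylcholine receptor subunits were lower in the pools with more OBP77, with r = -0.707 (permutation p = 0.00021, adjusted 0.00126) and rho = -0.654 (permutation p = 0.00117, adjusted 0.00702). They were highest, at 833 CPM, in single-foundress replicate 8, and r was -0.537 without the 2 libraries farthest from their median. All 10 subunits with a mean of at least 1 CPM, of 12 listed, had an r below 0, against 48.7% of all compared genes, and their median was -0.527. The sums overlapped between groups, at 468 to 833 CPM in the single-foundress, 443 to 767 in the five-foundress and 441 to 668 in the 10-foundress group. CPM values are shares of one total, and the part of the other tissues of the head in the variation of OBP77 was not tested.

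The opsin Lop1 had an r of -0.114 to OBP77 (permutation p = 0.611, adjusted 0.815). The 3 hexamerins, storage proteins of the fat body, had -0.0323 (permutation p = 0.885, adjusted 0.885), and the 2 defensins, which are antimicrobial peptides, had 0.241 (permutation p = 0.28, adjusted 0.479). The 46 gustatory receptors, which serve taste, summed to 17.7 to 30.3 CPM and had an r of 0.0411 (permutation p = 0.856, adjusted 0.885). Of these receptors 4 had a mean of at least 1 CPM, and 0 of the 4 had an r above 0.5 to OBP77. The share of all compared genes above it was 11.4%, so that 4 receptors are too few to tell them from other genes.

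OBP19 was close to the limit of detection, with 1 to 23 counts per library. Among single-foundress pools it had 0.150 CPM in replicate 1, a median of 0.207 and 0.341 in replicate 6. In the five-foundress group it had 0.186 CPM in replicate 10, a median of 0.240 and 0.415 in replicate 11, and in the 10-foundress group 0.0257 in replicate 21, a median of 0.274 and 0.576 in replicate 17. The groups overlapped, and the lowest and the highest pool were both of the 10-foundress group. The log2 fold change was 0.20, 0.03 and 0.23 in the 3 comparisons (standard errors 0.36, 0.33 and 0.35), with adjusted p from edgeR of 1, 1.00 and 0.956. Single-foundress replicate 2 had 25 counts of OBP19, or 0.455 CPM, more than any other library of its group. With that library the 10- versus single-foundress value was 0.01.

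OBP67 had 0 to 7 counts per library and 45 in all 22 libraries. It was at 0 in 3 single-foundress, 1 five-foundress and 1 10-foundress library, where a count of 0 allows at most 3 counts, or 0.0770 to 0.112 CPM over the 5 libraries concerned. Its highest value was 0.163 CPM in the single-foundress group (replicate 8), 0.121 in the five-foundress group (replicate 15) and 0.231 in the 10-foundress group (replicate 24). The log2 fold change was 0.11, 0.06 and 0.18 in the 3 comparisons, and its 95% interval between the 10- and single-foundress groups, -1.28 to 1.64, was the widest of the 3 genes (adjusted p = 0.985 from edgeR). The interval gives the differences compatible with these pools and this depth, and the smallest detectable difference was not computed. Without 10-foundress replicate 24 alone the value was -0.41.

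OBP19 and OBP67 did not show the relation of OBP77 to the receptors. For OBP19 r was 0.139 (permutation p = 0.539, adjusted 0.809) and for OBP67 -0.0557 (permutation p = 0.806, adjusted 0.885), both over 22 libraries. The Spearman rho was 0.0514 and 0.119. Without the 2 libraries farthest from the median of the receptors r was 0.185 and 0.199. These values rest on 1 to 23 and 0 to 7 counts per library, and the part of counting error in them was not tested. The 0.5 CPM added before the log exceeds the mean of both genes, 0.257 and 0.0560 CPM, and narrows their spread. The difference between the correlations of the 3 genes was not tested.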

How the data were processed

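Per the labels and the study's methods, the authors kept reads with a mean quality of at least 30, trimmed adapters with cutadapt 1.8.3, aligned them to Nvit 2.1 with TopHat2 2.0.14 and counted them per gene with HTSeq (6.0.1 in the labels, union mode, Annotation Release 101). The authors deposited these counts without normalization. Use of strand in the counting is not stated, so reads of overlapping genes are uncertain. Reads of near-identical copies are uncertain as well. Each library is a pool of 12 heads. The p-values of group differences set the difference against the spread between pools. Those of correlations set r or rho against permuted pairings of the pools. Totals were 25194329 to 69696501 counts. The counting errors in percent and the upper limit for libraries without a count cover counting error only. The intervals of the edgeR log2 fold changes come from the quasi-likelihood fit and include the spread between pools. No pair of libraries of one group was alike within counting noise (77 pairs, chi-square per gene 28.3 to 565).

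Counts were fitted in R 4.3.3 with the quasi-likelihood test of edgeR 4.0.16 in its present form (normalization by TMM, all genes with at least 1 read, 22 libraries, foundress number as the only factor) with Benjamini-Hochberg adjustment over all genes. Standard errors were derived from the F statistic. DESeq2 1.42.0, limma 3.58.1, other normalizations and filters, all 23 libraries and each library left out in turn were alternatives. Correlations used log2(CPM + 0.5) in Python 3.11.15 with numpy 2.4.6. Permutation tests were two-sided, exact within groups and with 100000 permutations over 22 libraries. The edgeR test, the ranking by r and the exact permutation p were tried on simulated data. The permutation p over 22 libraries was not among these cases. In the counts simulated for edgeR the genes varied independently, unlike the receptors here.

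The members and lists were chosen with earlier results of these data known. Genes were named if they were members, Or1, the 5 receptors with the highest or lowest r to OBP77, the 10 genes with the highest or the 5 with the lowest r (mean of at least 1 CPM), or neighbours of OBP77. Lists by product name were not used here, and lists were matched by symbol instead. In the RefSeq table of Nvit_psr_1.1, used only for gene order because the builds differ, the 3 members and 214 of 214 receptors were found.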

Additional observations from a re-analysis of the deposited data

Results flagged for a closer look

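In 108 groups of libraries examined, 8 had a highest or lowest library that stood apart from the rest by Dixon's criterion. For normally distributed values chance gives about 5% of groups. The criterion was applied without logs, and that rate need not hold for skewed values such as the summed defensins. OBP77 per 100 CPM of odorant receptors was 13.7 in single-foundress replicate 7, with 8.37 in the next library of the group. OBP67 was at 0.231 CPM in 10-foundress replicate 24, from 7 counts, with 0.0913 in the next. The neighbour LOC100119474 was at 16.7 CPM in single-foundress replicate 8, with 66.1 in the next, and LOC100115104, which ran against OBP77, was highest in the same pool at 46.4 CPM, with 40.8 in the next. Or301 was at 4.58 CPM in 10-foundress replicate 24, with 5.99 in the next. The summed defensins were at 5671 CPM in single-foundress replicate 6, 5528 in five-foundress replicate 10 and 5574 in 10-foundress replicate 24, with 1052, 1002 and 1533 CPM in the next library of each group. OBP77 was at 34.4, 69.3 and 80.8 CPM in these 3 pools.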

How the results depend on the processing

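Of 320 values under the alternatives, 311 kept their direction and side of the threshold and 9 turned their sign. The 320 include adjusted p-values for overall foundress number and counts of receptors, which have no sign to turn. For OBP77 five- versus single-foundress, 3 of 22 values with 1 library left out and 1 of 11 others turned. In the 10- versus single-foundress comparison, 4 of 22 values with 1 library left out turned for OBP67, and 1 of 10 others for OBP19. No paired analysis was made because the labels used here name no pairs of pools across the groups. The set-up was spread over 3 days, but the labels used here do not give the day of a pool, so that no fit with day as a block was made. With limma-voom and sample quality weights the log2 fold change of OBP77 in the five- versus single-foundress comparison was -0.13 and that of OBP19 in the 10- versus single-foundress comparison was -0.46; the cause was not tested. Without 1 library at a time OBP77 five- versus single-foundress lay between -0.039 and 0.26, and OBP77 was 0.20 to 0.56 in the 10- versus five- and 0.33 to 0.65 in the 10- versus single-foundress comparison, with -0.41 to 0.72 for OBP67 and 0.01 to 0.42 for OBP19 in the last. The correlation of OBP77 with the summed receptors stayed between 0.801 and 0.884 when a library was left out, and between 0.758 and 0.854 under the other alternatives. The number of receptors with an r above 0.5 was 116 to 123 when a library was left out and at most 171, when all receptors with at least 1 read were counted. OBP19 and OBP67 rest on at most 23 and 7 counts per library, and the shares of counting and of the spread between pools in their errors were not tested.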
